A study of Nematostella vectensis with 136 samples.

Results

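Adult starlet sea anemones (Nematostella vectensis, a burrowing estuarine cnidarian) that had lived under a light:dark cycle were compared with anemones kept in constant darkness, on the second day after the cycle had been taken away. The 40 libraries of time points T13 to T17, 20 per arm, were taken from 136 in the series by their labelled arm and time point, and 39 of them were used. In the arm labelled LD, animals spent 1 month under the cycle and a first day of sampling (T1 to T6) with the cycle on, and the cycle was removed at T7. In the arm labelled DD, animals were in darkness for the same month and throughout sampling. The lighting of the LD arm after removal is described only as a removed cycle. T13 to T17 therefore compared a past cycle with none, and whether the arms also differed in light at that time is not stated. Whole-organism RNA was sequenced from adults, with no other treatment or genetic change in either arm. Samples were taken every 4 h, so that T13 to T17 ran from 48 to 64 h after T1 and spanned 16 h, less than a full day. Each arm had 4 replicates per time point, lettered A to D. The labels do not give the number of animals behind a library or whether the letters stand for separate cultures, so a p-value measures only how these libraries spread, which may be technical. One column, LD T14 replicate D, held 27546 counts and was left out because it fell under 179339, the median total of the series divided by 3.

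Light is the main time cue for daily rhythms in many animals. In cnidarians it reaches the tissues through photoreceptors and cryptochromes spread over the body and not through a central eye or brain. A clock that runs by itself keeps a rhythm after the cue is gone, while a response driven directly by light stops with it. Sampling a formerly cycled arm beside a dark-kept arm therefore asks which expression differences outlast the cycle. The genes carry NVE identifiers only, and none of the 24384 matched the gene name table used here. Known clock, photoreceptor and cell type genes could not be looked up, and genes are given below by identifier and behaviour. In whole animals, fewer cells of a type and less RNA per cell cannot be told apart.

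The 39 libraries held 213651 to 749294 counts, with medians of 558460 in LD and 592292 in DD. All of them were labelled with sequencing lane 7. The shallow totals limit what can be seen for weakly expressed genes, and 9121 genes passed the filter on low counts. Between 12421 and 18060 genes had a count in an LD library, against 13740 to 17631 in a DD library.

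On the second day after removal, 1.73% of the 9121 genes differed in level between LD and DD when the 5 time points were fitted in one model. There were 139 genes higher in LD (1.52% of those tested) and 19 lower (0.208%), by edgeR's quasi-likelihood test with time point as a block and a Benjamini-Hochberg adjusted p under 0.05. Without adjustment, 963 genes had p under 0.05. The balance of directions depended on the method: DESeq2 called 111 genes (86 higher), limma-voom 7 (2 higher) and a filter of at least 10 counts in 80% of libraries 20 (6 higher). The median log2 difference over all tested genes was 0.01, and 52.0% of them were higher in LD. TMM scaling centres most genes on no difference, so these values do not bear on a shift of all genes. None of the called genes had arms that were fully separate: in every one, some LD library lay inside the DD range.

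Most of the genes higher in LD rose together in a few libraries. A group of 131 genes whose levels follow each other across the series, called programme A here, held 99 of the 139, and 124 of its genes were tested. Without the 4 LD libraries highest in the group, described below, 60 of the 124 pass the filter on low counts. The others were tested only through libraries where LD was high and so had to come out higher in LD, which makes the direction of the tested members no separate result. The 99 called members had log2 differences from 1.36 to 5.18 with a median of 3.50. Their levels were near 0 in most libraries: the DD median was 0 CPM (each library's counts scaled to a common total) for 75 of the 99 and the LD median was 0 CPM for 33. Between 5 and 10 of the 19 LD libraries, with a median of 6, lay above every DD library for a given gene.

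A score per library, its members' log2 CPM averaged over the 131 genes, shows how the programme was distributed. The median score over the 39 libraries was 2.34. LD had 4 libraries above 5.02, the midpoint of the score range in the series. LD T14 replicate A was highest at 6.46, with 1.66% of all its counts in programme A genes. LD T16 replicate D scored 5.88 (1.08% of counts), LD T17 replicate C 5.61 (0.860%) and LD T17 replicate A 5.55 (0.871%). Just under the midpoint came LD T13 replicate D at 4.96 and LD T15 replicate C at 4.51. The highest DD library was T13 replicate A at 3.95, with 0.212% of its counts in the programme, against a median of 0.0267% over the 39 libraries. High scores were therefore found in 1 or 2 of the LD replicates of a time point and never in all of them, and each of the 5 time points also had LD replicates at the DD level.

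**Figure D1:**
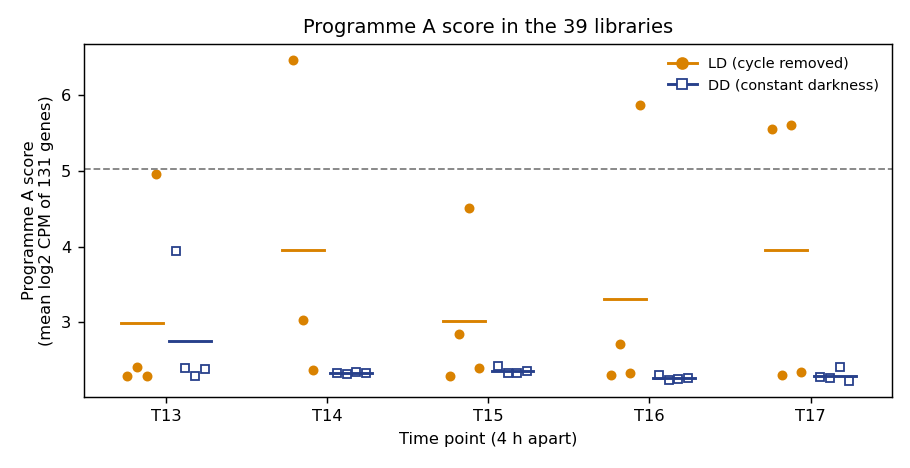
Programme A score (mean log2 CPM of 131 genes) in each of the 39 libraries by time point, LD as filled circles and DD as open squares, with bars at group means and a dashed line at the midpoint of 5.02. LD libraries above the line are 1 at T14, 1 at T16 and 2 at T17, while their replicates and all DD libraries lie below it.

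NVE9327, the called gene with the largest fitted difference, shows the pattern at the level of reads. It had 5 counts in all of DD, every one of them in T13 replicate A (6.60 CPM). In LD it had 298 counts in 12 libraries, and its highest values were 179.1 CPM in T14 replicate A, 106.4 in T17 replicate C, 65.5 in T17 replicate A and 56.3 in T16 replicate D. Values of 36.6 and 28.5 CPM followed in T13 replicate D and T15 replicate C, and the other 13 LD libraries lay between 0 and 6.83 CPM. The fitted log2 difference was 5.18 ± 0.91 (SE; adjusted p = 0.00443, edgeR), a value that rests on the 5 DD counts. NVE17265 had 4 counts in 3 DD libraries and was detected in 10 LD libraries, with 150.6 CPM in LD T17 replicate C, 129.2 in T14 replicate A, 117.9 in T17 replicate A and 42.6 in T14 replicate B. No other LD library exceeded 2.68 CPM, and the fitted log2 difference was 5.08 ± 0.85 (SE; adjusted p = 0.00360, edgeR). T14 replicate B is not among the libraries with a high score and T16 replicate D, which is, had 2.68 CPM, so NVE17265 did not follow the score in every library. Its correlation with the score, 0.74, was the lowest of the 99 called members, whose median was 0.97. In all 99, each of the 4 high-scoring LD libraries lay above every DD library, which follows in part from their choice by score.

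Because a few libraries carried so much of the difference, the comparison was repeated without the 4 LD libraries above the midpoint. With 15 LD and 20 DD libraries, 9413 genes were tested and 3 were called (0.0319%), all of which were also called with all 39 libraries. The 4 were picked by their high score and are all LD, so that a loss of programme A calls follows from the choice, and 49 of the 99 called members still passed the filter. The 3 called genes were NVE10140 and NVE3580, lower in LD, and NVE2343, higher in LD, each with an adjusted p of 0.0485 (edgeR). No programme A gene was called in the 35 libraries. Over the 9121 genes of the full comparison, the median log2 difference of the 99 called programme A genes was 1.54 without these libraries, and all 99 were above 0. That sign is no separate result, since the 35 libraries also served to call the genes. Single libraries also mattered: the count of calls was 43 without LD T14 replicate A, 93 without LD T16 replicate D and 104 without LD T13 replicate D. Leaving out a whole time point left 4 calls without T14, 1 without T16 and 0 without T17, whereas the count stayed within 1.5 times of the full one without T13 or without T15 (140 calls).

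**Figure D2:**
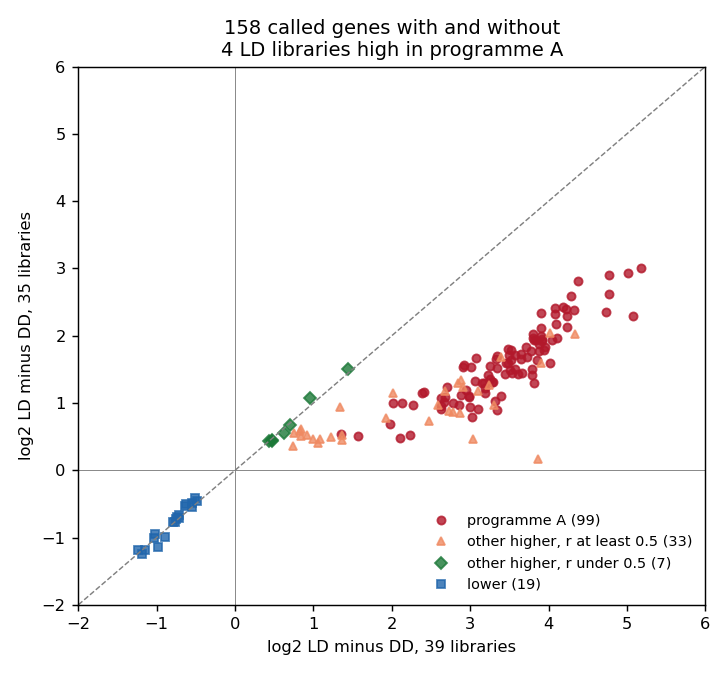
Log2 LD minus DD of the 139 higher and 19 lower genes over all 39 libraries (x axis) and over the 35 libraries without the 4 high in programme A (y axis), both fitted on the same 9121 genes. Points on the dashed line have the same difference in both; the 19 lower genes lie close to it, and programme A genes fall below it with a median of 1.54 in place of 3.50.

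The other 40 genes higher in LD divide by how closely they track the programme. In 33 of them the correlation of log2 CPM with the score over the 39 libraries was at least 0.5, given as a description since the libraries with high scores are the same ones, and their median log2 difference was 2.58. The remaining 7 had a correlation under 0.5 and smaller differences, from 0.43 to 1.44 with a median of 0.62. Their median was 0.56 without the 4 libraries, close to that with them. In that fit, on the same 9121 genes, none of the 7 passed the threshold: NVE2343 had an adjusted p of 0.0517 (edgeR), against 0.0485 where the filter was applied anew. Of the 40, 38 were higher in LD at all 5 time points. The median log2 difference of the 40 was 0.75 in the 35 libraries, and all 40 kept their sign. Both counts are a description, since the same libraries took part in calling the genes. Where the filter was applied anew, 20 of the 40 passed it and were higher in LD, with a median of 0.53. The others were tested only through libraries where LD was high.

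NVE2343 had the largest difference among those 7 and was described after its values were seen. Its lowest, median and highest levels were 52.1, 195.5 and 580.8 CPM in LD against 19.7, 59.1 and 164.8 CPM in DD. The arms overlapped, but 10 of the 19 LD libraries lay above every DD library, and the LD mean was higher at each time point. At T15, the 4 LD libraries had 206.2 ± 85.1 CPM (SD, n = 4) and the 4 DD libraries 60.5 ± 39.6. The narrowest gap was at T17, with 148.7 ± 85.6 CPM in LD and 91.2 ± 38.2 in DD. The log2 difference was 1.44 ± 0.27 (SE; adjusted p = 0.00577, edgeR). Without the replicates lettered C it was 0.91 with an adjusted p of 0.164.

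NVE3038, also described after its values were seen, showed a smaller and more even rise. It ranged from 47.4 to 110 CPM in LD with a median of 79.1, and from 25.4 to 85.0 CPM in DD with a median of 49.2. Although the arms overlapped over most of their range, LD was higher at all 5 time points and 6 LD libraries exceeded every DD library. The log2 difference was 0.62 ± 0.13 (SE; adjusted p = 0.00787, edgeR). It was 0.57 without the 4 libraries, where the adjusted p was 0.263.

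The 19 genes lower in LD formed a different kind of group, of genes expressed in both arms with moderate differences. Their DD means ran from 27.8 to 811 CPM, and their log2 differences from -1.24 to -0.48 with a median of -0.75. In all 19 the LD median was below the DD median, and 18 were lower in LD at all 5 time points. Between 0 and 11 LD libraries, with a median of 4, lay below every DD library. The median log2 difference of the 19 was -0.72 without the 4 libraries, and all 19 kept their sign. Like the directions by time point, this comes from libraries that also called the genes, so it is no separate result. Their correlations with the programme A score ran from -0.62 to -0.11 over the 39 libraries.

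NVE10140, the most highly expressed of the 19, reached 168.4, 427.3 and 764.8 CPM as its lowest, median and highest values in LD, against 342.1, 794.2 and 1493 CPM in DD. The arms overlapped, but 9 LD libraries lay below the lowest DD library. By time point, the means came closest at T13, with 415 ± 180.6 CPM in LD and 542 ± 185.2 in DD (SD, n = 4 each). Their ratio was farthest from 1 at T17, with 279 ± 124 CPM in LD against 872 ± 138 in DD, and there every LD library was below every DD library. The log2 difference over the 5 time points was -1.02 ± 0.17 (SE; adjusted p = 0.00360, edgeR) and -0.94 without the 4 libraries.

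NVE3580 had the largest fall. Its lowest, median and highest values were 7.67, 45.9 and 79.2 CPM in LD and 37.2, 85.5 and 200.6 CPM in DD. In LD, 8 libraries lay below the DD range, and at T16 the LD mean was 38.2 ± 28.1 CPM against 142.5 ± 49.4 in DD (SD, n = 4 each). The log2 difference was -1.24 ± 0.23 (SE; adjusted p = 0.00443, edgeR) and -1.17 without the 4 libraries. For both of these genes the call was lost without the replicates lettered D (adjusted p of 0.073 for NVE10140 and 0.074 for NVE3580), without T16, without T17 and with the programme A score as a covariate, while the differences stayed between -1.36 and -0.85. Other members of the 19 separated as well or better by library: NVE11665, chosen after its values were seen, had 11 LD libraries below every DD library, with medians of 96.1 CPM in LD and 202.3 CPM in DD and a log2 difference of -1.03 ± 0.22 (SE; adjusted p = 0.00788, edgeR).

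**Figure D3:**
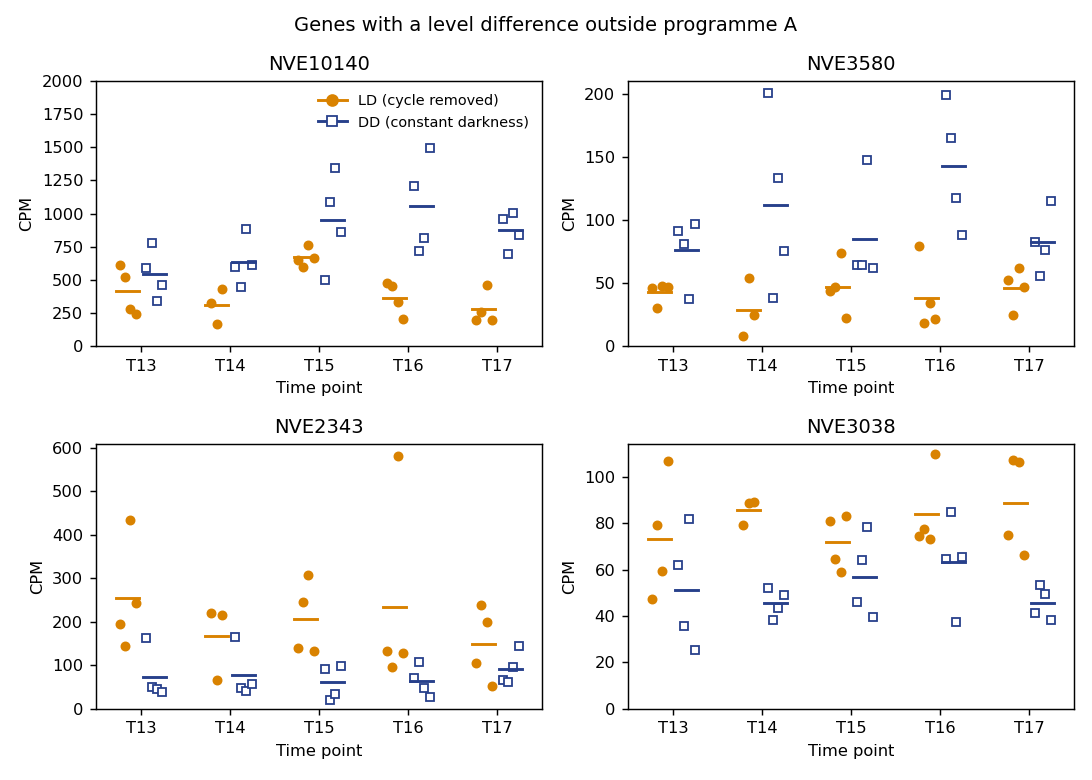
CPM of NVE10140, NVE3580, NVE2343 and NVE3038 in each of the 39 libraries by time point, LD as filled circles and DD as open squares, with bars at group means. NVE10140 and NVE3580 are lower and NVE2343 and NVE3038 higher in the LD mean at each of the 5 time points, with overlapping arms.

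Libraries from the earlier periods had no part in calling these genes and show how far each difference reached back. Programme A is an exception, since it was formed over all libraries of the series, so its values in T1 to T12 are a description and not independent. During the last day of the cycle (T1 to T6), 83 of the 99 called programme A genes could be tested. All 83 were higher in LD, with a median log2 difference of 0.83, but none was called. On the first day after removal (T7 to T12) all 99 were again higher, by a median of 2.83, and 86 were called. The 40 other higher genes had a median of 0.33 in T1 to T6, where 21 were tested, 19 had the same sign and 1 was called. That gene was NVE25471, whose log2 difference was 0.87 ± 0.19 with the cycle on, 0.66 ± 0.20 on the first day after it and 0.96 ± 0.24 on the second (SE; adjusted p of 0.00952, 0.0319 and 0.0269, edgeR). In T7 to T12, 39 of the 40 were tested, all were higher in LD, 26 were called and the median was 1.58. These pooled values are mostly those of the 33 genes that track the programme A score. For the 7 with a correlation under 0.5, the median was 0.11 in T1 to T6, with 1 called. In T7 to T12 it was 0.41, with 3 called. Among all genes tested, 66 of 9249 were called in T1 to T6 and 607 of 8615 in T7 to T12. The median log2 difference over all genes tested was 0.01 in both periods.

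The 19 lower genes had a median log2 difference of -0.29 while the cycle was on, -0.50 on the first day after removal and -0.75 on the second. The last of these is inflated by the choice of genes in that period. With the cycle on, 18 of the 19 were already lower in LD and none was called, against 66 of all 9249 genes. On the first day after removal, all 19 were lower and 9 were called, against 607 of all 8615 genes. NVE10140 went from -0.29 to -0.67 to -1.02 and NVE3580 from -0.09 to -0.81 to -1.24 over the 3 periods, and of the pair only NVE3580 was called on the first day (adjusted p = 0.00711, edgeR). For NVE2343 the values were 0.32, 0.78 and 1.44 and for NVE3038 -0.18, 0.44 and 0.62. Both were called on the first day after removal, with adjusted p of 0.0420 and 0.0132 (edgeR). T13 to T17 were sequenced on lane 7 and T1 to T12 on lane 5, so day and lane cannot be told apart when levels are set side by side, whereas each LD minus DD difference lies within 1 lane.

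**Figure D4:**
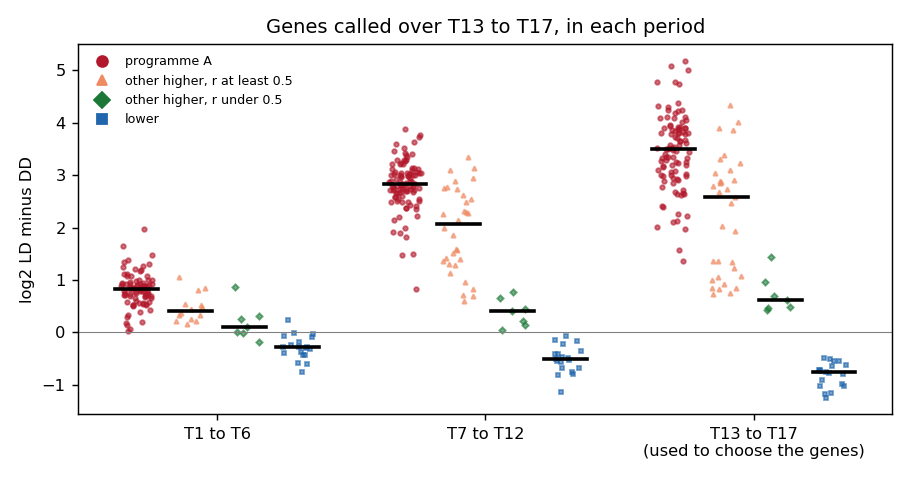
Log2 LD minus DD of the genes called over T13 to T17, in each of 3 periods, with black bars at the medians of programme A, other higher genes by their correlation with its score, and lower genes. Medians of the lower genes are -0.29, -0.50 and -0.75 and those of programme A 0.83, 2.83 and 3.50; the last period chose the genes.

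Read in the other direction, the lists of genes called in the earlier periods had smaller median differences on the second day. With the cycle on, 66 of 9249 genes were called, 46 higher and 20 lower in LD. Of the 46, 38 were tested in T13 to T17, where 29 had the same sign, NVE25471 was called and the median had moved from 0.85 to 0.18. The 20 lower genes had moved from a median of -0.69 to -0.33, with 18 of the same sign and none called. On the first day after removal 607 of 8615 genes were called, 516 higher and 91 lower. Among the 388 of the 516 that were tested on the second day, 373 had the same sign and 112 were called, and the median was 0.67 against 1.18 on the first day. Most of these 112 were programme A genes, whose grouping used all libraries of the series and is not independent of either day. Outside programme A, 279 of 400 genes were tested on the second day and 26 were called. The median outside it was 0.44 against 0.94 on the first day. The 91 lower genes had a median of -0.24 against -0.51, with 80 of the same sign and 9 called. No gene from either earlier list was called in the opposite direction. Medians in the period that chose the genes are inflated by that choice, and the change itself was tested gene by gene.

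In that test, which set the LD minus DD difference of T13 to T17 against that of T7 to T11 at matching clock times, 0 of 10648 genes were called (0%) by edgeR. The smallest adjusted p was 0.572, and 728 genes had an unadjusted p under 0.05. DESeq2 called 1 gene and limma-voom 0. The gene with the smallest p, NVE16070, went from a log2 difference of -0.76 ± 0.26 on the first day to 0.82 ± 0.27 on the second (SE). Its LD mean was 8.71 and then 12.1 CPM and its DD mean 16.1 and then 7.23 CPM. By edgeR no gene therefore had a detectable fall or rise of the arm difference between the days.

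At single time points, 0 of 45605 gene-by-time-point pairs (0%) were called by edgeR when adjusted together. The smallest adjusted p was 0.0610, and 3360 pairs had an unadjusted p under 0.05, with 660 at T13, 1033 at T14, 409 at T15, 648 at T16 and 610 at T17. Adjusted within each time point, 1 gene passed at T13, 4 at T14 and none later. The T14 genes were NVE12352 and NVE4792, higher in LD by 2.19 ± 0.37 and 2.75 ± 0.55 on the log2 scale, and NVE12877 and NVE5421, lower by a log2 difference of -2.91 ± 0.57 and -3.34 ± 0.66 (SE). T14 had 3 LD libraries. The T13 gene was NVE7332, at -3.10 ± 0.57, where DD T13 replicate C had 357 CPM and the other 3 DD libraries 29.1 to 35.5 CPM. For a change of LD minus DD with time point, 0 of 9121 genes (0%) were called by edgeR, with a smallest adjusted p of 0.175 and 578 genes under an unadjusted 0.05. DESeq2 called 8 pairs at single time points and 4 genes for a change with time point, and limma-voom 0 in both.

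Within the arms, 16 of 9121 genes (0.175%) differed among the 5 time points in DD and 0 (0%) in LD, by edgeR. In LD the smallest adjusted p was 0.0534 and 662 genes had an unadjusted p under 0.05; in DD those values were 0.00768 and 1101. DESeq2 called 142 genes in DD and 10 in LD, and limma-voom 10 and 0. These counts do not show that the arms differ in how genes moved over time, since the test of that difference called none. Of the 16 genes, 14 moved in the same direction in LD between the time points at which DD was highest and lowest. The ratio of the highest to the lowest time point mean had a median of 3.80 in DD and 2.24 in LD over the same 16 genes, which DD values had chosen. None of the 16 was among the genes with a level difference between the arms.

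The 16 genes included 6 with high expression, a mean log2 CPM of at least 10, and 5 of these were highest at T14 in both arms. NVE13181 had 2024 to 2798 CPM in the 4 DD libraries of T14 and 1239 to 1676 CPM at T15. In LD it had 1962 to 2149 CPM in the 3 libraries of T14 and 1266 to 1556 CPM at T15. The ratio of the highest to the lowest mean was 1.78 in DD (adjusted p = 0.00838, edgeR) and 1.46 in LD, where the adjusted p was 0.497. NVE414, NVE19115, NVE9318 and NVE21253 were the others that peaked at T14, with ratios of 1.86, 1.70, 1.63 and 1.75 in DD and 1.30, 1.21, 1.26 and 1.34 in LD. NVE69 was lowest at T13 and highest at T17 in DD, with a ratio of 1.56. Its DD mean also rose at T14 and fell at T15, and then rose again.

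Other genes rose or fell across the 16 h in DD. NVE9067 had 0 to 1.37 CPM in the 4 DD libraries of T13 and 14.0 to 25.6 CPM at T17, with no overlap. In the LD libraries it had 1.48 to 14.4 CPM at T13 and 10.0 to 15.1 CPM at T17. The fitted log2 change from T13 to T17 was 4.19 ± 0.83 in DD (SE; adjusted p = 0.0245, edgeR), a value that rests on single counts at T13, and 0.42 ± 0.60 in LD. Leaving out any DD library of T13 took the adjusted p to 0.051 or above.

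NVE6785 fell in DD from 627 to 2417 CPM at T13 to 291 to 390 CPM at T17, and in LD it stood at 314 to 734 CPM and then 258.2 to 419 CPM. The DD groups did not overlap and the LD groups did. The log2 change was -1.92 ± 0.35 in DD (SE; adjusted p = 0.00838, edgeR) and -0.46 ± 0.34 in LD. Without DD T13 replicate C, the library with 2417 CPM, it was -1.42 in DD with an adjusted p of 0.0859.

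The calls of NVE7148 and NVE7332 also turned on 1 library each. NVE7148 had 1374 CPM in DD T17 replicate A and 38.4 to 72.2 CPM in the other 3 libraries of that time point, against 7.44 to 21.1 CPM at T13. Its log2 change was 4.75 ± 0.90 (SE; adjusted p = 0.00768, edgeR), and 2.04 with an adjusted p of 0.0781 without that library. NVE7332 fell by 2.18 on the log2 scale (SE 0.55; adjusted p = 0.0231, edgeR) from a T13 group that held the value of 357 CPM in replicate C. Without that library its log2 change was -0.51 and the adjusted p 0.429.

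**Figure D5:**
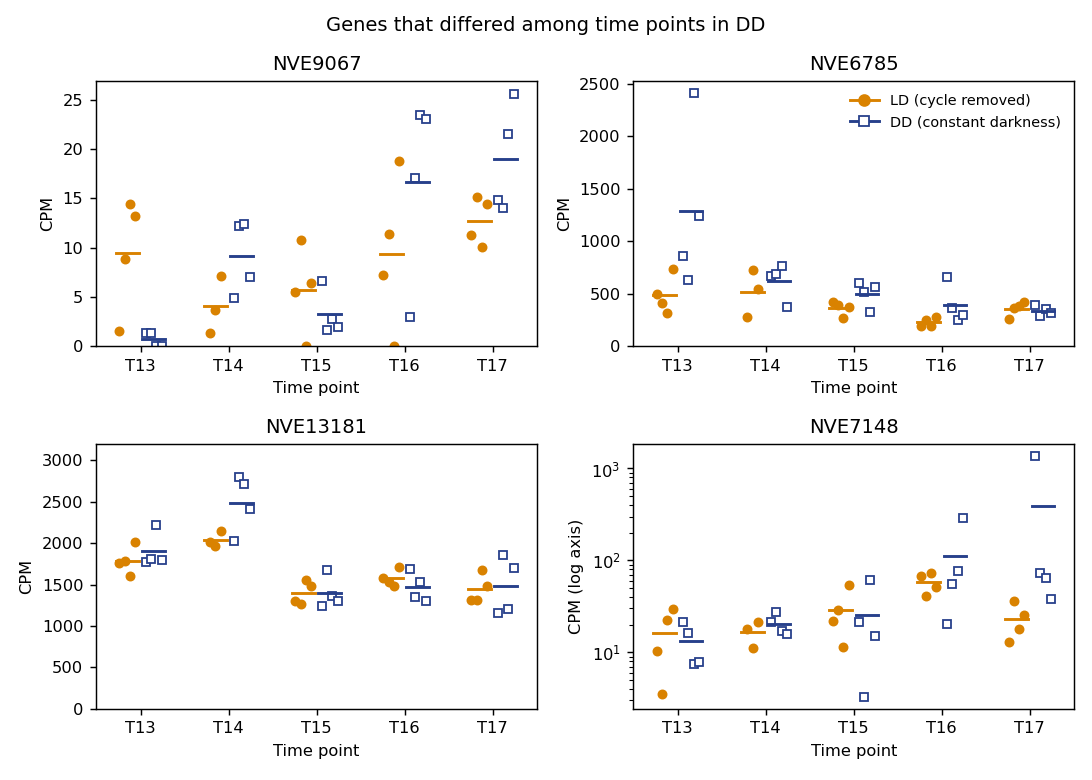
CPM of NVE9067, NVE6785, NVE13181 and NVE7148 in the 39 libraries by time point, LD as filled circles and DD as open squares, with bars at group means; the NVE7148 panel has a log axis. NVE13181 peaks at T14 in both arms, and the T17 mean of NVE7148 in DD is set by 1 library at 1374 CPM.

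The spread between replicates was also compared, as each library's root mean square deviation from the mean log2 CPM of the other libraries of its group. The deviation was scaled for the number of those libraries. It ranged from 0.539 to 0.838 over the 19 LD libraries with a mean of 0.660 ± 0.0815 (SD), and from 0.517 to 0.883 over the 20 DD libraries with a mean of 0.615 ± 0.0848. The arms overlapped almost fully, and the difference of 0.0448 did not pass a two-sided permutation test (p = 0.0904). The LD library that deviated most, T16 replicate C, was also the shallowest at 213651 counts, and the DD library that deviated most was T13 replicate C. With the 4 libraries high in programme A left out of the LD mean, the same deviations averaged 0.648 ± 0.0781 (SD, n = 15). With group means recomputed without them, where LD T14 and T17 kept 2 libraries each, the difference was 0.0185 (permutation p = 0.502).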

How the data were processed

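Gene counts for 24384 NVE identifiers in 136 libraries were used as deposited by the authors; reads were mapped with Bowtie2 per the submitters' processing notes, and the labels cite the genome and library method by reference only. The labels name no counting tool, strand setting or gene models, so genes that overlap or share reads with a close copy are uncertain. Columns were matched to libraries by the S number in the title. The members, programme A and every list were chosen with earlier results of these data known.

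Counts of the 39 libraries were TMM-normalised, filtered with filterByExpr over arm-by-time-point groups and fitted with edgeR 4.0.16 (glmQLFit and glmQLFTest, R 4.3.3), with time point as block for the level difference. The tests of single time points, of a change with time point and of differences within an arm used 1 coefficient per arm and time point. The change from T7-T11 to T13-T17 was tested over 133 libraries of the series, and the earlier periods were fitted separately in the same way as the level difference. P-values were adjusted over all genes tested by Benjamini-Hochberg, with a threshold of 0.05. The level fit, the test of DD time points and the deviation test were run on simulated counts. The other tests were not. Programme A came from joining the 400 most variable genes at a correlation above 0.5, and log2 CPM used a prior count of 2. Replicate spread was compared by a two-sided permutation test with 100000 draws. limma-voom (limma 3.58.1) and DESeq2 1.42.0 were alternatives, beside other normalisations and filters, left-out libraries, letters and time points, and a block for the replicate letter. Letters did not pair the arms: same-letter LD and DD libraries of a time point had deviations that correlated with a median of -0.00965 over 19 pairs, and 2 pairs exceeded 0.1.

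Genes named for the level difference were the 2 higher and 2 lower called genes with the smallest adjusted p, with exceptions stated. Their p-values were therefore also the basis of the choice. Genes named for time points in DD were the called genes with the largest rises and falls from T13 to T17, 2 each. These were taken among genes averaging log2 CPM 2 or more, with exceptions stated. NVE16070, NVE25471, the single-time-point genes, the genes peaking at T14 and NVE69 were chosen after their values were seen. Replicate libraries differed beyond counting noise in all 57 pairs of the 2 arms (smallest chi-square per degree of freedom 5.15). Counts are not known to be free of PCR copies. Totals near 567085 per library give few counts for genes below a few CPM.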

Additional observations from a re-analysis of the deposited data

Results flagged for a closer look

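Each of 13 measures (10 named genes, the programme A score, the total count and the replicate deviation) was examined in the 9 arm-by-time-point groups of 4 libraries for a library far from its 3 replicates, by Dixon's test. It marked 20 of 117 groups. The 117 include groups in which a gene was at 0 CPM in all 4 libraries and could not be marked. For normally spread values chance marks about 1 in 20, a rate that need not hold for CPM near 0. Single libraries stood apart most in genes that vary between libraries, and the causes were not tested. NVE7148 was at 1374 CPM in DD T17 replicate A, with the next library at 72.2 CPM. NVE7332 was at 357 CPM in DD T13 replicate C, with the next at 35.5, and at 22.9 in LD T13 replicate B, with the next at 9.61.

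The programme A score stood apart in LD T13 replicate D at 4.96 (next 2.41), LD T16 replicate D at 5.88 (next 2.71) and DD T13 replicate A at 3.95 (next 2.40). NVE9327, a programme A gene, stood apart in LD T13 replicate D at 36.6 CPM, LD T15 replicate C at 28.5, LD T16 replicate D at 56.3 and DD T13 replicate A at 6.60. NVE17265, another of its genes, was marked for 1 to 2 counts in a group otherwise at 0: 1.76 CPM in LD T13 replicate B, 2.64 in DD T13 replicate A, 1.89 in DD T15 replicate D and 2.43 in DD T16 replicate B.

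NVE2343 was at 581 CPM in LD T16 replicate C, the shallowest library used, with the next at 132 CPM. In DD it was at 162.4 CPM in T13 replicate A and 164.8 in T14 replicate A, with the next libraries at 49.2 and 57.7. NVE3580 was at 29.9 CPM in LD T13 replicate B, below the next at 45.9, and at 148.006 CPM in DD T15 replicate C, above the next at 64.1. NVE3038 was at 110 CPM in LD T16 replicate D, a library high in programme A, with the next at 77.4.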

How the results depend on the processing

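The share of tested genes with a level difference, 1.73%, ran from 0% to 2.19% over 61 alternatives, and no direction of a described gene reversed. It was 0.0767% with limma-voom (7 genes, 2 higher in LD), 1.02% of a longer list with no low-count filter, 0.525% with at least 10 counts in 80% of libraries (20 genes, 6 higher), and 0% with the programme A score as a covariate. Without the 4 libraries high in programme A it was 0.0319%, or 0.0219% on the full set of genes, an alternative chosen after seeing the data. It was 0.0488%, 0.0113% and 0% without T14, T16 and T17. DESeq2 gave 1.22% (111 genes, 86 higher) and a block for the replicate letter 1.75%. Leaving out replicates gave 0.0345% (every D) to 2.19% (DD T13 replicate A). NVE10140 and NVE3580 stayed past the threshold in 57 of 61 alternatives each, NVE2343 in 56 and NVE3038 in 54. For the programme A genes NVE17265 and NVE9327 it was 51 of 57 and 51 of 60.

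At single time points DESeq2 called 8 pairs, library size alone 1, no filter 2 and the stricter filter 1, against 0. For a change with time point they called 4, 1, 0 and 1. Time points in LD gave 10 genes with DESeq2, 2 with no filter and 1 with the shallow library kept. Time points in DD gave 142 genes with DESeq2, 10 with limma-voom, 30 with the stricter filter and 16 with the letter block. Leaving out replicates there gave 0 (every B) to 37 (DD T15 replicate B, chosen after seeing the data). By single library it was also 8 without DD T14 replicate B, 10 without T15 replicate A, 34 and 28 without T16 replicates B and A, and 29 without T17 replicate C. Without T17, also chosen later, it gave 8. The change from T7-T11 gave 1 gene with DESeq2 and 0 to 1 without a letter. The deviation difference ran from 0.0322 to 0.0599 without a letter, the latter (without A) with a permutation p of 0.0282. It was 0.00487 (permutation p = 0.808) with the median absolute difference and 0.00973 (permutation p = 0.715) over the genes averaging log2 CPM 4 or more. The letter block ended 1 call of a described gene, NVE7332 in DD (adjusted p = 0.072, edgeR). It was not run for the deviation, which is 1 value per library. Causes of these moves were not tested. Depth limits weakly expressed genes most, and the rise of programme A rests on few DD counts.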
